A study of Homo sapiens with 6 samples.

Results

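Interferon-stimulated genes are the genes whose transcripts rise when a cell responds to interferon, and 39 of them were followed here among the 30330 genes with a value in these libraries. The set was defined by symbol: 9 groups of antiviral sensors, transcription factors, ubiquitin-like modifiers, effector enzymes and membrane proteins, matched to Ensembl identifiers, with RIGI also known by its older symbol DDX58. All 39 had a row. RNA-seq was compared between H1975/OSI cells and the NCI-H1975 cells they came from, a human lung adenocarcinoma line. The 3 resistant libraries came from NCI-H1975 cells made resistant to osimertinib (OSI), an inhibitor of the EGFR kinase, by exposure to 0.03, 0.1, 0.3, 1 and 3 µM over 7 months. The 3 control libraries came from NCI-H1975 cells without this selection. The resistant cells are 1 selected line, and the labels do not say whether osimertinib was present at harvest or whether the libraries came from separate cultures. The p-values below therefore cover library-to-library spread alone, part of which may be technical.

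Interferons bind receptors at the cell surface, whose JAK1 and TYK2 kinases phosphorylate STAT proteins, STAT2 among them. STAT2 and IRF9 are subunits of the ISGF3 complex, which binds the interferon-stimulated response element (ISRE) in promoters and turns on interferon-stimulated genes. Many epithelial tumour lines keep part of this programme on without added interferon. The products sense foreign RNA, degrade it, block translation or hold virus particles at membranes, and some (USP18, SOCS1) feed back to damp the receptor.

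The promoters of the 6 members that fell by at least 2-fold are shown, with those of IFI44L and STAT2 as members that rose, because the ISRE is the sequence through which ISGF3 acts. The RefSeq promoter table (GRCh38.p14) held windows for 30 of the 39 members, each reaching from 250 bases before to 50 bases after the start. The motif searched was GAAA, any 2 bases and GAAA again, on either strand (TTTC, any 2 bases and TTTC when read on the other), with overlapping matches allowed. It occurred in 19 of the 30 members (63.3%), against 1195 of the 27305 genes with a window (4.38%). Each sequence below is the 150 bases before the start, 5′ to 3′ on the gene's strand, with the motif in capitals. Matches elsewhere in a window are not printed: the windows of IFIT5, IFITM1 and IFI44L held 3, 2 and 2 matches, with 2, 1 and 1 printed.
ISG15: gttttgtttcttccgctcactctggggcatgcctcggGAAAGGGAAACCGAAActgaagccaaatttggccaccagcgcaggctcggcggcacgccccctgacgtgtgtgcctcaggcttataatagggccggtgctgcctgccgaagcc
IFIT1: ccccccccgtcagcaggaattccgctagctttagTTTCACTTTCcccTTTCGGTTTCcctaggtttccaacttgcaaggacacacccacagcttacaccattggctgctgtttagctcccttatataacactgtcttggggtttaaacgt
IFIT5: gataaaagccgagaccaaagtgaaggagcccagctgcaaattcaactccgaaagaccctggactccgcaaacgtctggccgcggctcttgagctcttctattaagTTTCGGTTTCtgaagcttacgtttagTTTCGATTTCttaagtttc
OAS3: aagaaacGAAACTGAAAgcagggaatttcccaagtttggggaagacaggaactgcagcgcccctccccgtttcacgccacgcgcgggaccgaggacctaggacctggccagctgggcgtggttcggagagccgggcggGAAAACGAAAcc
IFITM1: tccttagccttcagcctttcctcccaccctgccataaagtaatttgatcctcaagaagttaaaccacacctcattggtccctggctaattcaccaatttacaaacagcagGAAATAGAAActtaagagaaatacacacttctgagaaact
IFI35: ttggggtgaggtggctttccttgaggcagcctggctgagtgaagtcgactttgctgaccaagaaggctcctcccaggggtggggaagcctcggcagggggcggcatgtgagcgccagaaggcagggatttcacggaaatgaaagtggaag
IFI44L: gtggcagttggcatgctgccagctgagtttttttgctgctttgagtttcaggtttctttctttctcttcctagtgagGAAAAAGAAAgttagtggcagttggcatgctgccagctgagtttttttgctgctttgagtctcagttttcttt
STAT2: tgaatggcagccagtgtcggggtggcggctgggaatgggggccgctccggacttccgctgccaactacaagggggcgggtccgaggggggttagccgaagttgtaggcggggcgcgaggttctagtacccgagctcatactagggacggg

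These stretches lie at chr1:1013347-1013496 (ISG15), chr10:89392473-89392622 (IFIT1), chr10:89414418-89414567 (IFIT5), chr12:112938324-112938473 (OAS3), chr11:313890-314039 (IFITM1), chr17:43006634-43006783 (IFI35) and chr1:78620298-78620447 (IFI44L) on the plus strand, and at chr12:56360108-56360257 (STAT2) on the minus strand. In ISG15 the capitals hold 2 overlapping matches, which begin 113 and 107 bases before the start. In OAS3 the matches begin 143 and 12 bases before it, and in IFIT1 116 and 103. The IFI35 and STAT2 windows hold none of these letters. Among the members with a window, the motif was present in 12 of the 18 whose transcripts fell in resistant cells (66.7%), in 1 of the 4 that rose (25%) and in 6 of the 8 that did not pass the test (75%). A second element, the gamma-activated site (TTCNNNGAA, the same letters on both strands), was present in 8 of 30 members (26.7%) and in 9.38% of all genes with a window.

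In resistant cells 24 of the 39 members fell, 5 rose and 10 did not pass the test. Values are the deposited normalized read counts, which are reads divided by 1 factor per library, and a difference was called at an adjusted p below 0.05 in limma on log2(value + 1) across 24560 tested genes. Of all tested genes, 21.1% were called lower and 20.4% higher in resistant cells, 41.5% in all. Among the 11271 tested genes at or above the lowest member's mean of 97.8 normalized reads, 34.9% were called lower and 28.2% higher. The median log2 fold change of the members was -0.56, against 0.01 over all tested genes and -0.04 over those 11271. Fold changes of members ran from -1.66 (IFITM1) to 1.26 (TRIM22). Differences of at least 2-fold were called for 6 lower members (ISG15, IFIT1, IFIT5, OAS3, IFITM1 and IFI35) and 1 higher member (TRIM22), where 5.72% of tested genes were called at least 2-fold lower and 7.86% at least 2-fold higher (4.26% and 4.53% of the 11271). The 3 resistant values lay below the 3 control values for 25 members (25.4% of tested genes, 38.3% of the 11271) and above them for 6 (24.7% and 31.8%). Groups without overlap were found in 50.1% of tested genes, so the members' share alone says little, and their direction and size are what the values below give.

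**Figure D1:**
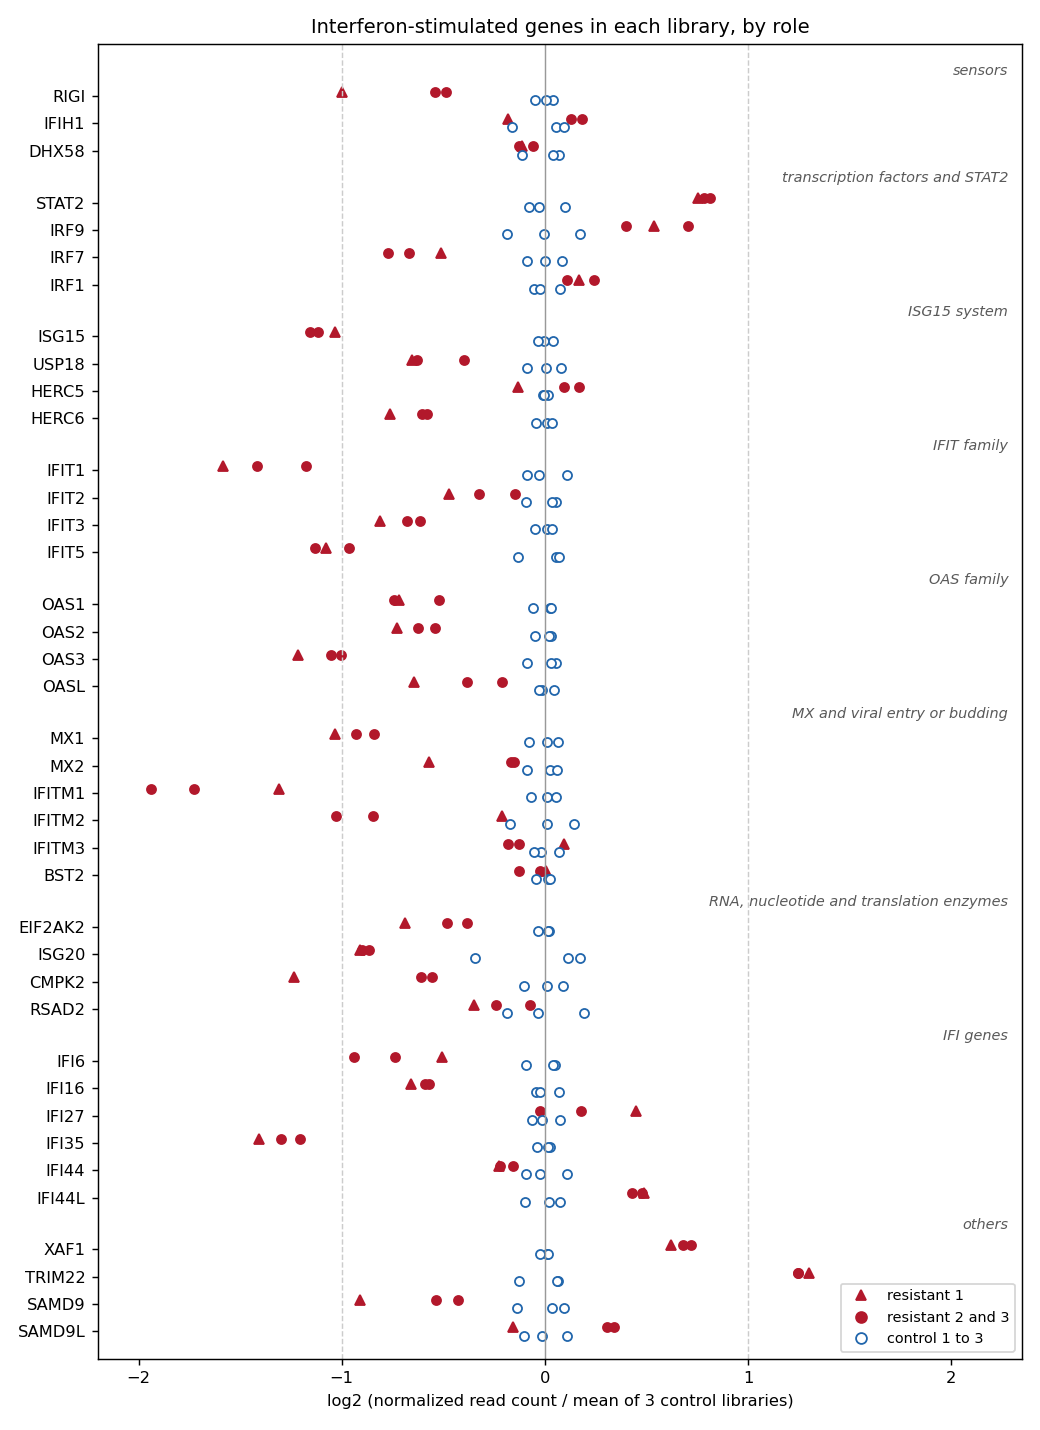
Log2 difference of each interferon-stimulated gene from its control mean, in each of the 3 resistant and 3 control libraries, with members ordered within their role groups. Resistant points lie below the control points for all IFIT and OAS genes and above them for STAT2, IRF9, IFI44L, XAF1 and TRIM22.

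The libraries held 15174126 to 16588479 reads. Resistant replicate 1 stood apart from its own group: the mean chi-square per gene of its counts was 12.1 and 13.5 against resistant replicates 2 and 3, which differed from each other by 2.42, and control pairs lay between 2.55 and 3.93. Members kept their overall shift without it (median log2 fold change -0.48), and calls that depended on it are given beside each gene. Mitochondrial transcripts took 5.33 to 5.66% of reads in resistant libraries and 6.46 to 7.34% in control libraries; their part in the results was not tested. The lung epithelial list was abundant, with a summed level of 40557 to 47354 normalized reads in resistant and 58623 to 61898 in control libraries, led by keratins. In it, EPCAM was 17.6 ± 2.03 in resistant and 379 ± 21.9 in control cells (SD, n = 3 each), while the lung lineage factor NKX2-1 was at 461 ± 21.0 in resistant and 287 ± 28.1 in control cells (log2 fold change 0.69, limma adjusted p = 4.32e-06). NAPSA was at 31.1 ± 6.42 in resistant and 20.3 ± 5.12 in control cells and was not called, and SFTPB was at or near 0 in both. Leukocytes also express many members. Of 7 leukocyte markers, 5 had a row, with a summed level of 320 to 364 in resistant and 438 to 439 in control libraries, most of it CD14. LYZ was at 0 to 2.04 and CD68 at 0 to 5.10 in every library. Endothelial markers (3 of 3 with a row) summed to 557 to 751 in resistant and 289 to 329 in control libraries, but went in opposite directions: CDH5 was at 579 ± 105 in resistant and 126 ± 3.37 in control cells, PECAM1 at 83.3 ± 4.996 in resistant and 181 ± 21.4 in control cells, and VWF near 0 in both. Fibroblast markers (2 of 3) summed to 117 to 153 in resistant and 76.1 to 125 in control libraries, and the single measured marker of plasmacytoid dendritic cells, IL3RA, was at 69.3 to 95.1 in resistant and 17.3 to 21.6 in control libraries. The part of these markers in the results was not tested. In bulk libraries, fewer cells with a transcript and less of it per cell cannot be told apart.

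Of the 3 cytosolic RNA sensors, 1 fell and 2 did not pass the test. RIGI, which binds short double-stranded and 5′-triphosphate RNA, had 597, 852 and 818 normalized reads in resistant cells, against 1153, 1225 and 1198 in control cells. The groups did not overlap, and resistant replicate 1 was the lowest library (log2 fold change -0.67 ± 0.11 SE, limma adjusted p = 6.73e-05). IFIH1 (MDA5), which binds long double-stranded RNA, averaged 681 ± 88.5 in resistant and 657 ± 60.5 in control cells (SD, n = 3 each), with a 95% interval of its log2 fold change from -0.15 to 0.24. DHX58 (LGP2), which modulates both, averaged 409 ± 10.9 in resistant and 438 ± 28.5 in control cells, with an interval from -0.29 to 0.09. Their groups overlapped, and RIGI was the sensor of the 3 whose difference passed the test. The transcript of MAVS, the adaptor that RIGI and IFIH1 share, was also lower, at 3454 ± 174 in resistant and 5110 ± 277 in control cells (log2 fold change -0.56, limma adjusted p = 1.25e-07).

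Of the 4 transcription factor genes among the members, 2 rose, 1 fell and 1 did not pass the test. STAT2, the subunit that carries the main activation domain, had 1980.5, 2019 and 2061 normalized reads in resistant cells, against 1259, 1113 and 1153 in control cells. Every resistant library lay above every control library (log2 fold change 0.78 ± 0.07 SE, limma adjusted p = 1.67e-09). IRF9, the DNA-binding subunit, averaged 116 ± 12.4 in resistant and 79.3 ± 9.86 in control cells (SD, n = 3 each; 0.55, adjusted p = 0.00879). That call was lost without resistant replicate 2 (adjusted p = 0.0548) and without control replicate 2 (0.0511), and every 50-base stretch of IRF9 transcripts also occurs in an overlapping annotated gene on the same strand (ENSG00000259529), so its reads are uncertain. IRF7, the factor that amplifies interferon production, had 469, 421 and 392 in resistant cells, against 629, 709.7 and 669 in control cells, with no overlap (-0.65 ± 0.09 SE, adjusted p = 2.13e-06). IRF1, induced mainly by interferon gamma, averaged 872 ± 39.7 in resistant and 774 ± 37.0 in control cells; all resistant values were higher, but the difference did not pass the test with every library (0.17, adjusted p = 0.0732) and was called without resistant replicate 1 (0.18).

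In the ISG15 system 3 of 4 members fell. ISG15 encodes a ubiquitin-like protein that is conjugated to other proteins or secreted, on chromosome 1 from 1001138 to 1014540 in the annotation of GRCh38. It had 1902, 1745 and 1792 normalized reads in resistant cells, against 3871, 3998 and 3798 in control cells. The groups stood far apart relative to their spread (log2 fold change -1.10 ± 0.06 SE, limma adjusted p = 1.15e-12). USP18, the protease that removes ISG15 and also restrains the interferon receptor, averaged 269 ± 27.1 in resistant and 395 ± 23.5 in control cells (SD, n = 3 each; -0.56), with 23.4% of its 50-base stretches shared, mainly with USP41. HERC6 averaged 521 ± 35.1 in resistant and 818 ± 22.9 in control cells (-0.65). HERC5, the main human ligase for ISG15, averaged 487 ± 51.3 in resistant and 471 ± 4.67 in control cells, and its interval ran from -0.15 to 0.23. The other enzymes of the conjugation pathway differed in direction: UBA7, which activates ISG15, was higher at 1938 ± 11.99 in resistant and 1320 ± 27.7 in control cells (0.55, adjusted p = 1.79e-07), while UBE2L6, which carries it, was lower at 1634 ± 28.3 in resistant and 1992 ± 97.5 in control cells (-0.29, adjusted p = 0.00105; 0.0518 without limma's trend).

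All 4 members of the IFIT family fell, with a median log2 fold change of -0.88. IFIT proteins bind viral RNA and hinder its translation. IFIT1, which recognises RNA lacking the cap methylation of host mRNA, had 720.0, 807 and 956 normalized reads in resistant cells, against 2030.0, 2118 and 2326 in control cells. No resistant library came near a control library (log2 fold change -1.39 ± 0.09 SE, limma adjusted p = 3.35e-11). IFIT5 had 439.5, 423 and 476 in resistant cells, against 847, 962 and 972 in control cells, again without overlap (-1.05 ± 0.08 SE, adjusted p = 3.35e-10). IFIT3, which stabilises IFIT1, had 1366, 1563 and 1496 in resistant cells, against 2314, 2414 and 2457 in control cells (-0.70 ± 0.07 SE, adjusted p = 9.56e-09). IFIT2 differed least, at 887 ± 101 in resistant and 1099 ± 61.2 in control cells (SD, n = 3 each; -0.31, adjusted p = 0.00334, and 0.102 without limma's trend). IFIT1, IFIT2 and IFIT3 lie within the span of LIPA, a lysosomal lipase gene on the opposite strand. LIPA averaged 2414 ± 60.8 in resistant and 4302 ± 158 in control cells (-0.83, adjusted p = 1.03e-10). How strand was used in counting is not given in the sources used here, so reads of these genes and of LIPA cannot be told apart where they overlap.

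All 4 members of the OAS family fell too, with a median of -0.64. OAS1, OAS2 and OAS3 make 2′-5′-linked oligoadenylates on meeting double-stranded RNA, which trigger decay of RNA in the cell; human OASL lacks that activity. OAS3 had 2561, 2869 and 2965 normalized reads in resistant cells, against 6189, 6073 and 5607 in control cells. The lowest control library was well above the highest resistant one (log2 fold change -1.09 ± 0.07 SE, limma adjusted p = 3.95e-12). OAS1 averaged 635 ± 55.1 in resistant and 1002 ± 33.4 in control cells (SD, n = 3 each; -0.66), and OAS2 averaged 1487 ± 97.4 in resistant and 2299.5 ± 69.3 in control cells (-0.63). OASL averaged 560.0 ± 83.4 in resistant and 739.6 ± 20.8 in control cells (-0.41, adjusted p = 0.000933, and 0.0714 without limma's trend).

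Of the 6 MX, IFITM and BST2 genes, which act on virus entry, nuclear import or budding, 3 fell and 3 did not pass the test. IFITM1, a membrane protein found largely at the cell surface, had the lowest fold change of all members. It had 1769, 1328 and 1144 normalized reads in resistant cells, against 4419, 4561 and 4190.4 in control cells (log2 fold change -1.66 ± 0.15 SE, limma adjusted p = 7.60e-05). Resistant replicate 1 was the highest resistant library, still far below the controls. IFITM3, which restricts fusion in endosomes, had 12880.4, 11049 and 10643 in resistant cells, against 11897, 12664 and 11603 in control cells. The groups overlapped through resistant replicate 1 (-0.07 ± 0.07 SE, adjusted p = 0.457), and a difference of -0.15 was called without it. IFITM2 had 1350.2, 870.4 and 767 in resistant cells, against 1575, 1725 and 1389 in control cells; resistant replicate 1 was the highest of its group there as well. Its fold change of -0.69 was not called (adjusted p = 0.0945), and without resistant replicate 1 it was -0.93 (adjusted p = 4.45e-13). The IFITM genes resemble each other: 42.3% of the 50-base stretches of IFITM1, 15.8% of IFITM2 and 20.3% of IFITM3 also occur in transcripts of other genes, so reads may have been split between them. The whole of IFITM1 also lies within the annotated span of IFITM2 on the same strand.

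MX1, a dynamin-like GTPase that blocks influenza virus, averaged 968 ± 63.7 in resistant and 1849 ± 90.8 in control cells (SD, n = 3 each; -0.93, limma adjusted p = 1.87e-10). Its paralogue MX2, known for restricting HIV, averaged 636 ± 99.1 in resistant and 773 ± 40.6 in control cells (-0.29, adjusted p = 0.0179). MX1 kept its call under every setting tried, whereas that of MX2 was lost without resistant replicate 1, control replicate 1 or control replicate 3, with quantile normalization and without limma's trend. BST2 (tetherin), which holds budding virus at the surface, averaged 7499 ± 355 in resistant and 7749 ± 209 in control cells, with an interval from -0.17 to 0.08. Per kilobase of the deposited gene length, IFITM3, BST2 and IFI6 were the most abundant members in resistant cells, at 8549, 6701 and 4504 normalized reads per kb. In control cells the same genes led in another order, with IFITM3 at 8943, IFI6 at 7405 and BST2 at 6925 normalized reads per kb. ISG15 was at 1927 per kb in resistant and 4133 in control cells, and IFITM1 at 1309 in resistant and 4065 in control cells. This ranking depends on the length used. IFI27, at 2221 per kb in resistant and 1914 in control cells, has a deposited length of 4147 bases but a transcript of 725. Per kb of transcript it would rank above BST2 and IFI6 in both groups.

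Of the enzymes that act on RNA, nucleotides and translation, 3 of 4 fell. EIF2AK2 (PKR), the kinase that stops translation when it binds double-stranded RNA, had 1782, 2051 and 2196 normalized reads in resistant cells, against 2905, 2903 and 2799.7 in control cells. The groups were separate (log2 fold change -0.52 ± 0.07 SE, limma adjusted p = 2.41e-06); GPATCH11, which overlaps it on the opposite strand, had a log2 fold change of -0.55. ISG20, an exonuclease, averaged 96.1 ± 1.54 in resistant and 178 ± 32.9 in control cells (SD, n = 3 each; -0.87). CMPK2, a nucleoside monophosphate kinase of mitochondria, averaged 163 ± 39.3 in resistant and 279 ± 18.2 in control cells (-0.80). Its opposite-strand neighbour RSAD2 (viperin), which makes a chain-terminating nucleotide, averaged 213 ± 20.8 in resistant and 248 ± 33.2 in control cells and was not called, with an interval from -0.46 to 0.04.

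The IFI genes share a name rather than a function, and 4 of the 6 fell. IFI35, whose product binds the interferon-induced protein NMI, had 442, 507 and 475 normalized reads in resistant cells, against 1188, 1139 and 1182 in control cells. Its groups were far apart (log2 fold change -1.30 ± 0.08 SE, limma adjusted p = 2.43e-12). NMI itself was lower as well, at 354 ± 17.0 in resistant and 578 ± 39.6 in control cells (SD, n = 3 each; -0.70, adjusted p = 7.12e-07). IFI6, a mitochondrial and endoplasmic reticulum protein, averaged 3896 ± 586 in resistant and 6405 ± 354 in control cells (-0.73), and IFI16, a nuclear DNA sensor, averaged 4061 ± 129 in resistant and 6184 ± 262 in control cells (-0.61). AIM2, the DNA sensor of the same family and outside the 39, had 189, 215 and 217 in resistant cells, against 562, 558 and 633 in control cells (-1.49 ± 0.10 SE, adjusted p = 1.76e-11). Among the 39 members, IFITM1 alone had a lower fold change.

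IFI44 and IFI44L, adjacent paralogues on chromosome 1, were called in opposite directions. IFI44L had 1815, 1743 and 1803 normalized reads in resistant cells, against 1312, 1213 and 1364 in control cells, without overlap (log2 fold change 0.46 ± 0.07 SE, limma adjusted p = 5.34e-06). IFI44 averaged 1223 ± 32.4 in resistant and 1406 ± 101 in control cells (SD, n = 3 each; -0.20, adjusted p = 0.0284), a call lost without resistant replicate 2, control replicate 1 or control replicate 3, with quantile normalization and without limma's trend. IFI27 had 10833, 8988 and 7806 in resistant cells, against 8358, 7855 and 7593 in control cells. Resistant replicate 3 lay within the control range, the fold change of 0.20 ± 0.09 SE was not called (adjusted p = 0.109), and it was called without that library.

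Of the remaining 4 members, 2 rose and 1 fell. TRIM22, a ubiquitin ligase with antiviral activity, had 951, 917 and 916 normalized reads in resistant cells, against 404, 353 and 403 in control cells. It was the member with the highest fold change, and its groups were widely separated (log2 fold change 1.26 ± 0.08 SE, limma adjusted p = 1.20e-11). TRIM5, a retroviral restriction factor that overlaps TRIM22 on the opposite strand, was at 771 ± 36.0 in resistant and 613 ± 11.5 in control cells (SD, n = 3 each; 0.33, adjusted p = 0.00121). XAF1, a pro-apoptotic partner of XIAP, averaged 1399 ± 48.6 in resistant and 877 ± 12.8 in control cells (0.67), with 69.6% of its 50-base stretches shared with other genes. SAMD9, which restricts poxviruses, had 765, 993 and 1068 in resistant cells, against 1538, 1308 and 1473 in control cells (-0.62 ± 0.11 SE, adjusted p = 0.000179). Its adjacent paralogue SAMD9L averaged 737 ± 134 in resistant and 650.3 ± 47.5 in control cells and was not called (adjusted p = 0.262); without resistant replicate 1, the lowest of the 6 libraries, it was called at 0.33.

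Upstream of these genes, a list of 56 ligands, receptors, kinases, sensors, adaptors and regulators had 48 genes with a row and 45 tested. Of these 45, 17 rose and 13 fell, with a median log2 fold change of 0.07. Of all tested genes, 20.4% rose and 21.1% fell, and of the 11271 genes above, 28.2% and 34.9%. With each library centred on its median gene, 14 genes of the list rose and 16 fell (15.1% and 27.1% of tested genes). Genes named from this list and the next were chosen by rule (the receptors, JAK1, TYK2 and genes past 2-fold) or, for the others, after their values were seen. Interferon transcripts were near 0: 5 of 12 ligand genes had a row, 3 were tested and none was called, the highest being IFNE, with 16.3, 10.2 and 15.8 normalized reads in resistant cells, against 5.13, 6.23 and 12.5 in control cells. Both chains of the type I receptor rose. IFNAR1 had 1065, 1016 and 1052 in resistant cells, against 749.6, 782 and 918 in control cells (log2 fold change 0.36 ± 0.08 SE, limma adjusted p = 0.000739; 0.0577 without the trend). IFNAR2 was low, at 55.1, 38.8 and 67.1 in resistant cells, against 26.7, 21.8 and 22.2 in control cells (1.12 ± 0.25 SE, adjusted p = 0.000864). Neither chain's groups overlapped.

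Among the other receptor chains, IFNGR2 of the interferon gamma receptor averaged 1627 ± 352 in resistant and 1033 ± 13.5 in control cells (SD, n = 3 each; log2 fold change 0.63, limma adjusted p = 0.000838). Its partner IFNGR1 averaged 4854 ± 138 in resistant and 5085 ± 235 in control cells and was not called (-0.07). IFNLR1, the specific chain of the interferon lambda receptor, fell to 15.3 ± 2.81 in resistant cells, against 33.3 ± 4.04 in control cells (-1.08, adjusted p = 0.00379). IL10RB, its partner, averaged 17.3 ± 6.03 in resistant and 8.49 ± 3.32 in control cells, with no overlap. Its fold change of 0.97 was not called (adjusted p = 0.0592), but was without resistant replicate 1 (1.18) and without control replicate 1. IFNAR1, IFNAR2, IFNGR2 and IL10RB lie close together on chromosome 21, and all had resistant values above every control value. IFNLR1 and IFNGR1 lie on chromosomes 1 and 6. The part of this shared stretch in the receptor changes was not tested. The receptor kinases differed little: JAK1 averaged 3835 ± 78.6 in resistant and 3407 ± 98.9 in control cells (0.17, adjusted p = 0.0265), a call lost when any of 4 libraries was left out (resistant replicate 2 or 3, control replicate 2 or 3) and with each library centred on its median gene, and TYK2 averaged 4042 ± 202 in resistant and 4195 ± 100.02 in control cells. The feedback inhibitors SOCS1 and SOCS3 were both higher. Of the 13 tested genes listed as negative regulators, these 2 included, 4 rose and 4 fell. SOCS1 had 405, 325 and 324 in resistant cells, against 177, 229 and 184 in control cells (0.84 ± 0.12 SE, adjusted p = 5.12e-06), and SOCS3 averaged 1647 ± 296 in resistant and 948 ± 118 in control cells (0.79).

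**Figure D2:**
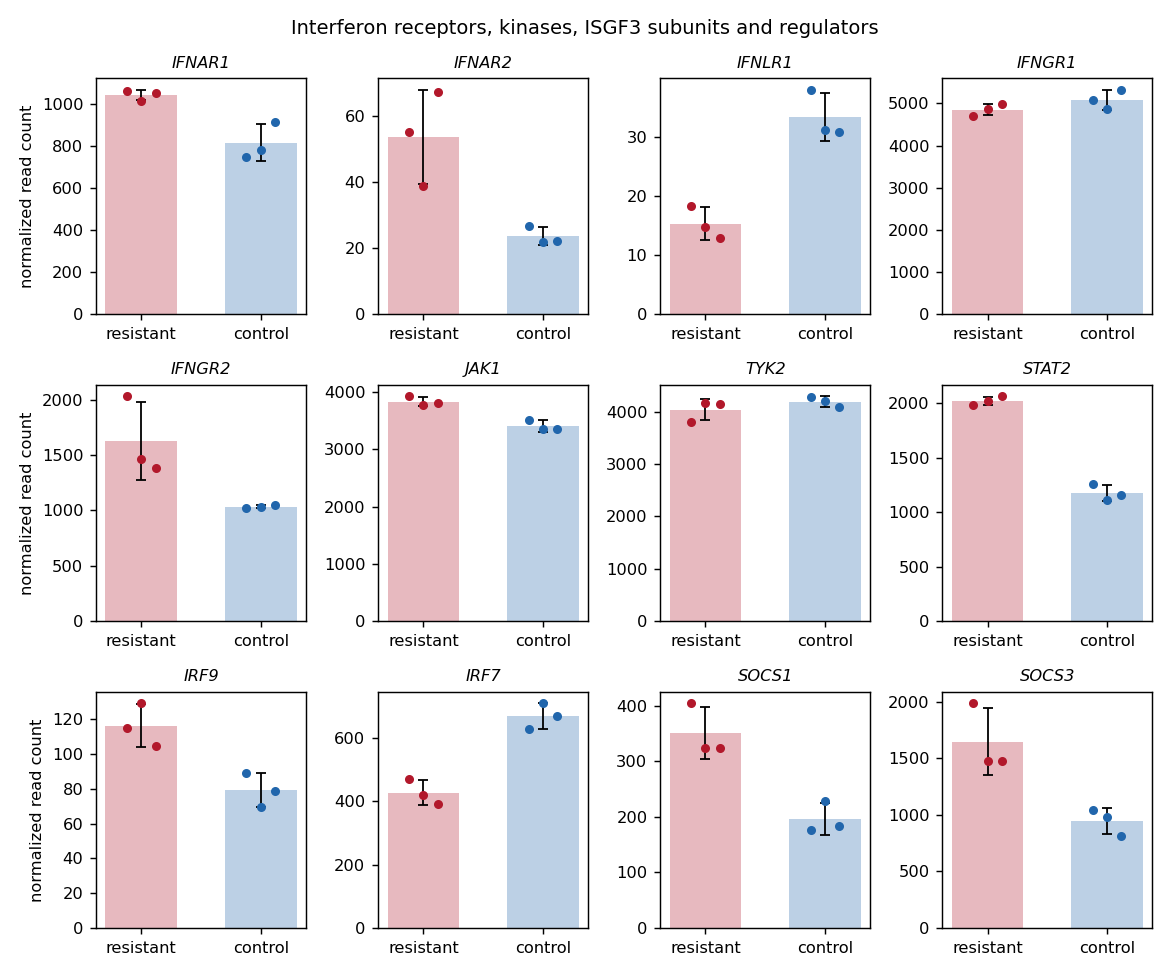
Normalized read counts (vertical axes, each from 0) of interferon receptor chains, kinases, STAT2, IRF9, IRF7 and SOCS inhibitors in the resistant and control libraries, with points for libraries, bars for group means and error bars for the SD (n = 3 each). STAT2, SOCS1 and SOCS3 are higher and IRF7 is lower in resistant cells.

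Of the sensors on this list, the endosomal TLR7, which binds single-stranded RNA, had 9.18, 21.2 and 19.7 normalized reads in resistant cells and 0 reads in all 3 control libraries, at least 5.52-fold higher against a floor of 3 reads per library. TLR9, which binds unmethylated DNA, was listed at 3.06, 5.54 and 2.96 in resistant cells, against 1.03, 0 and 0 in control cells, so a single read carries the control values, and its call was lost without resistant replicate 2, control replicate 2 or control replicate 3. TLR3, the endosomal sensor of double-stranded RNA, averaged 125 ± 24.5 in resistant and 67.3 ± 11.3 in control cells (SD, n = 3 each; log2 fold change 0.88, limma adjusted p = 0.000323). STING1, the adaptor for cytosolic DNA, averaged 1033 ± 42.5 in resistant and 1433 ± 53.4 in control cells (-0.47, adjusted p = 5.60e-06). Of the 6 adaptors on this list, with MAVS and STING1 among those that fell, 3 rose and 3 fell. IKBKE, the kinase that can activate IRF3, averaged 449.8 ± 78.8 in resistant and 794 ± 55.3 in control cells (-0.83, adjusted p = 2.42e-06). TANK, which binds that kinase, went the other way, at 878 ± 69.2 in resistant and 555 ± 43.4 in control cells (0.66).

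A second list held 53 other interferon-induced genes, all tested: 25 fell, 11 rose and 17 did not pass the test. Their median log2 fold change was -0.22. Of all tested genes, 21.1% fell and 20.4% rose, and of the 11271 genes above, 34.9% and 28.2%. With each library centred on its median gene, 29 genes of the list fell and 7 rose (27.1% and 15.1% of tested genes). EPSTI1 was the only gene of this list past 2-fold, at 9.18, 9.23 and 16.8 normalized reads in resistant cells, against 23.6, 27.0 and 27.9 in control cells (-1.14 ± 0.33 SE, limma adjusted p = 0.00734). BATF2, a transcription factor, averaged 131 ± 8.86 in resistant and 254 ± 25.5 in control cells (SD, n = 3 each; -0.95). SP110, a nuclear body protein, averaged 298 ± 25.8 in resistant and 513 ± 6.75 in control cells (-0.79). WARS1, the interferon-inducible tryptophanyl-tRNA synthetase, moved the other way, at 4888 ± 88.3 in resistant and 3630 ± 40.5 in control cells (0.43, adjusted p = 2.29e-06).

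Whole chromosome stretches can differ between a line and its resistant derivative. Each member was therefore set beside the tested genes around it, up to 25 on each side by start, with members left out. Fewer were available near chromosome ends: 46 in all for CMPK2 and RSAD2, and 36, 35 and 37 for IFITM1, IFITM2 and IFITM3. The neighbours' median log2 fold change ran from -0.50 (around CMPK2 and RSAD2) to 0.49 (around IFI27), with a median of -0.04. A member's own change minus that of its neighbours had a median of -0.44, with 29 members below their neighbours and 10 above. Of the 24 members that fell, 23 lay below their neighbours, the exception being IFIT2 at -0.31 with neighbours at -0.33. All 5 that rose lay above theirs. Both groups were picked by their own fold changes, and neighbour medians lay between -0.50 and 0.49. These counts were therefore largely set by the calls, and say little about chromosome stretches. The genes around the IFIT cluster (-0.33), EIF2AK2 (-0.44) and IFI35 (-0.37) were themselves mostly lower in resistant cells, while those around ISG15 (0.10), OAS3 (-0.04) and IFITM1 (-0.02) lay close to 0. Over the 39 members, the change of a member and that of its neighbours had a Spearman rho of 0.27 and a Pearson r of 0.29, given as a description since clustered members share neighbours. Copy number was not measured here.

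**Figure D3:**
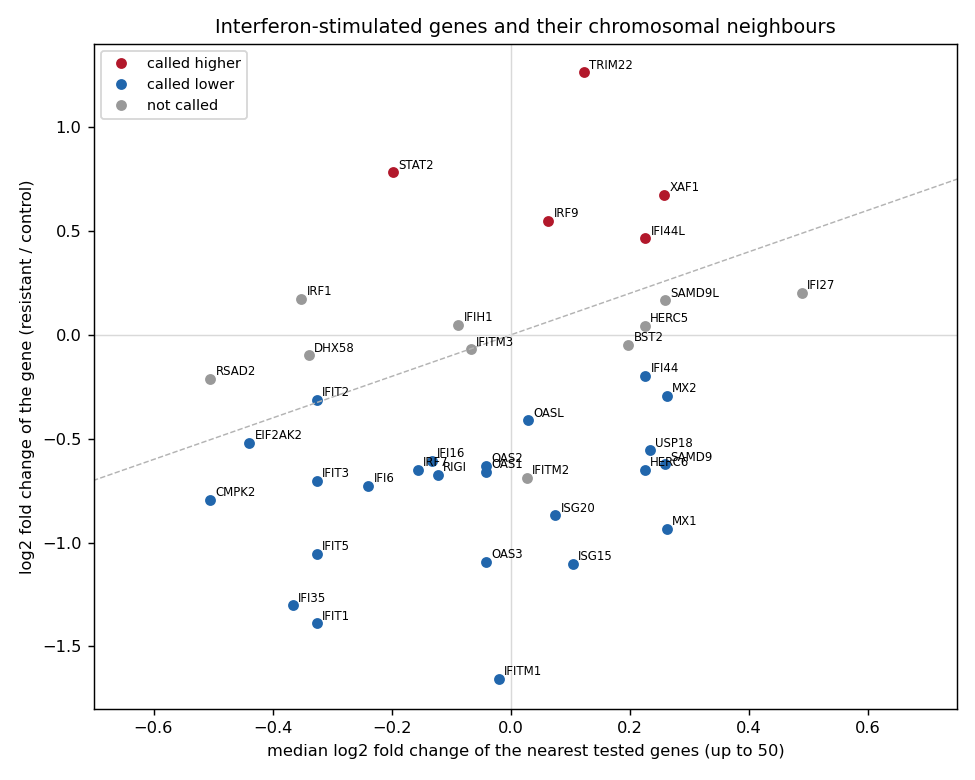
Log2 fold change (resistant minus control) of each interferon-stimulated gene, on the vertical axis, against the median log2 fold change of up to 50 tested genes around it, on the horizontal axis, with the line of equality. Most members lie below the line, with 29 below and 10 above.

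Resistant replicate 1 deviated from the other resistant libraries in many members, and the deviation went with gene length. It was below both others in 24 members, above both in 10 and between them in 5. The mean log2 difference of the 39 members from control was nevertheless alike in the resistant libraries, at -0.44, -0.35 and -0.37 for replicates 1, 2 and 3. The deviation had a Spearman rho of -0.45 with the deposited gene length and of 0.50 with GC content over the 39 members, and of -0.25 and 0.20 over the 11271 genes at or above the lowest member mean. These are descriptions over genes of the same libraries. Members with a short deposited length, such as IFITM1, IFITM2 and IFI6, were higher in resistant replicate 1 than in replicates 2 and 3. Several with a long deposited length, such as MX2 and SAMD9L, were lower. The cause of this difference was not tested.

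**Figure D4:**
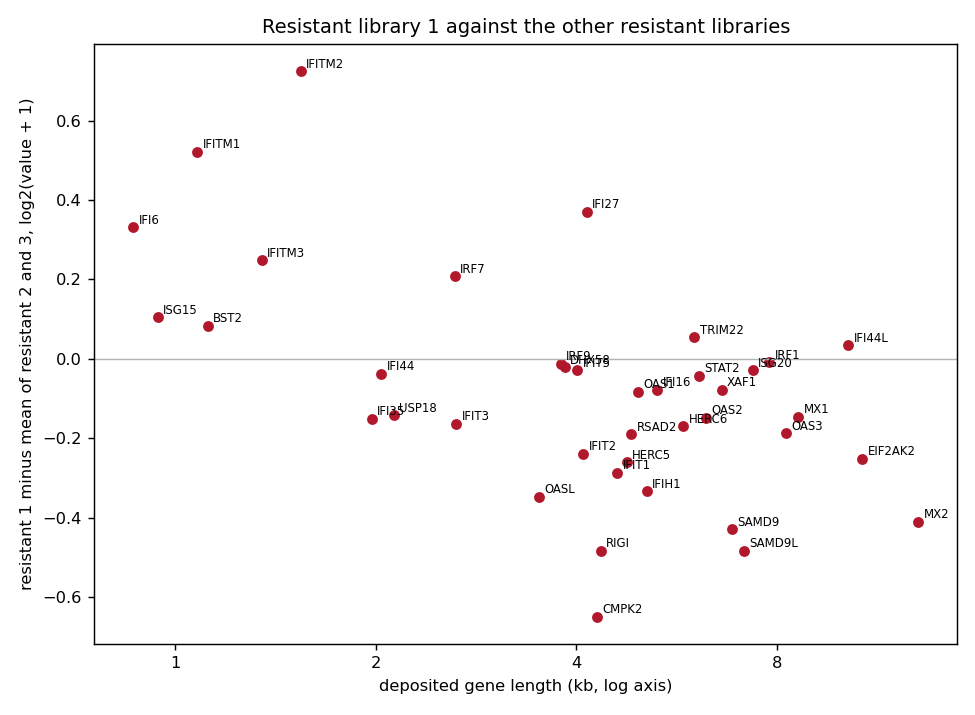
Log2 value of each interferon-stimulated gene in resistant replicate 1 minus the mean of resistant replicates 2 and 3, on the vertical axis, against the deposited gene length in kb on a log axis. Points fall with length: Spearman rho is -0.45 over the 39 members.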

How the data were processed

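RNA-seq libraries of 3 resistant and 3 control samples were grouped by their titles. The authors deposited a signal value per gene and library: read counts divided by 1 factor per library, per the file contents, since all values (100%) were whole multiples of 1 read within 0.001 reads. Per the labels' protocols, total RNA was used with NEBNext Ultra and SMARTer mRNA-seq kits; per the submitters' processing notes, the genome was GRCh38. The aligner, the counter and the annotation are not given in the sources used here. Symbols were found for 30078 of 30330 identifiers.

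The 24560 genes that reached 1 in 3 or more libraries were tested with limma 3.58.1 in R 4.3.3 (log2(value + 1), trend and robust variance, group only, two-sided, Benjamini-Hochberg over all tested genes, threshold 0.05; 10204 genes called). Fold changes are resistant minus control on that scale and understate low genes. Alternatives were edgeR 4.0.16 (10159 called) and DESeq2 1.42.0 (8885) on recovered read counts, other scalings, filters and pseudocounts, no variance trend, a replicate block, each library left out and, added after seeing the data, removal of GC and length trends. Scripts were tested on simulated data. Every member is named; values of every library are given for members past 2-fold, the member with most reads in each role group, and members moving against their group. Stretches of 50 bases shared between genes, and overlaps, came from GENCODE. The members, lists and tests were chosen with earlier results of these data known. Intervals cover the spread between libraries only. Some genes of the lists enter the counts but are not reported here by name.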

Additional observations from a re-analysis of the deposited data

How the results depend on the processing

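Of the 29 members called, 24 (20 lower, 4 higher) were called in the same direction under all 16 alternatives; the exceptions were IRF9, IFIT2, OASL, MX2 and IFI44. The counts of members called stayed within 1.5 times the reported ones, at 4 to 7 higher and 22 to 25 lower when a library was left out; on recovered reads edgeR called 5 higher and 24 lower and DESeq2 5 and 25. Centring each library on its median gene lowered the median of all genes by 0.13 (log2 shift -0.13), with 3713 genes called higher and 6666 lower against 5010 and 5194; the members' median was then -0.69. The members' median was -0.61 to -0.48 when a library was left out, with -0.48 reached without resistant replicate 1. Other interferon-induced genes called higher numbered 7 under median centring and 7 without limma's trend, against 11, and 10 to 12 when a library was left out. Pathway genes called were 14 to 17 higher and 10 to 13 lower, and other interferon-induced genes called lower 23 to 25, when a library was left out. The difference from chromosomal neighbours was -0.35 with quantile normalization, -0.50 with no filter on low values, -0.50 with 20 neighbours, and -0.49 to -0.36 when a library was left out. Values of uncalled genes that changed sign were IFIH1 (-0.087 with median centring, -0.031 to 0.158 when a library was left out), HERC5 (-0.091 with median centring, -0.019 to 0.130 when a library was left out), IFITM3 (0.051), BST2 (0.082), IFNGR1 (0.028) and TYK2 (0.050), the last 4 with quantile normalization. Members not called but called under other scalings were DHX58, IFITM2, IFITM3, BST2 and RSAD2 (lower, median centring) and IRF1 and IFI27 (higher, quantile normalization). Causes were not tested.

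Libraries sharing a replicate number did not deviate together (correlations -0.0015, 0.0001 and 0.0067), and the main test did not use the numbers. So few pairs cannot show whether the numbers mark more than sample names. With replicate number as a block, 5003 genes were called higher and 5172 lower, and 6 members higher and 25 lower, since IFI27 (adjusted p = 0.0223) and IFITM2 (0.00207) were then called. Depth was not varied; with 15174126 reads or more per library, precision is lowest for genes with few reads, such as TLR7, TLR9, the ligands and, among the members, IRF9.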

Other observations

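Some families of interferon-induced genes outside the 39 held calls in both directions, and others in 1. GBP1, GBP2 and GBP3, guanylate-binding proteins that attack intracellular pathogens, fell (log2 fold changes -0.24, -0.35 and -0.50), GBP4 rose (0.83) and GBP5 did not pass the test in limma. PARP9 and its partner DTX3L fell (-0.58 and -0.40), while PARP14 rose (0.42). SP100 and SP110 both fell (-0.48 and -0.79), as did DDX60 and DDX60L (-0.39 and -0.22). ADAR, which edits double-stranded RNA, had 8113, 9655 and 9535 normalized reads in resistant cells, against 12738, 12248 and 11809.9 in control cells (-0.43, limma adjusted p = 1.02e-05). ZNFX1, an RNA helicase, averaged 1666 ± 323 in resistant and 2814 ± 87.9 in control cells (SD, n = 3 each; -0.78), with resistant replicate 1 the lowest at 1293. These genes were chosen after their values were seen.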
